A study of Mus musculus with 24 samples.

Results

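The 9 genes followed here are known for their work in the visceral endoderm. These 9 of the 22926 gene symbols in the count tables were read in 24 poly(A) RNA-seq libraries of mouse embryonic stem cells (ESCs): *Afp*, *Ttr*, *Apoa1*, *Apob*, *Cubn*, *Amn*, *Lrp2*, *Dab2* and *Sparc*. They were taken by symbol, with the first line of the table for each symbol, and all 9 were found. The cells were clones of a 129-derived (129/SVj) line with eGFP inserted at *Pou5f1* (Oct4:IRES:eGFP), and 1 clone of that line was the parent of every genotype. The genotypes were: WT (3 clones), *Tet1*-/- (3), *Tet2*-/- (2), DKO, which lacks *Tet1* and *Tet2* (2), and TKO, which lacks *Tet1*, *Tet2* and *Tet3* (2), edited by Cas9 and guide RNAs, mostly through small indels. Each genotype was sequenced undifferentiated (D0) and after 6 days without leukemia inhibitory factor (LIF, D6), on gelatin-coated plates. The libraries of a group are separate clones grown from 1 parent, so p-values measure the spread between clones and not between mice or lines. Clones of *Tet2*-/-, DKO and TKO are named here by replicate; in *Tet2*-/- and TKO a replicate number stands for the same clone at both days.

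The visceral endoderm is the outer epithelium of the early mouse embryo, which takes up nutrients from the mother before the placenta works. It does this with giant endocytic receptors at its apical surface, and it secretes plasma proteins and lipoproteins that the fetal liver makes later. In cultured ESCs a share of cells can take this path when LIF is removed. Fewer cells of a type and less RNA per cell cannot be told apart in bulk samples such as these.

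Of the 9 genes, *Lrp2* and *Dab2*, which act in endocytic uptake, were higher at D6 than at D0 in all 5 genotypes, and *Sparc* was called lower at D6 in *Tet2*-/-. The secreted products that define the tissue, *Afp*, *Ttr* and *Apoa1*, were at or near 0 in nearly every library. A visceral endoderm program is therefore not shown by these defining products, and the genes are called by their own names. Each library held 18400463 to 37290208 counts. Levels are in CPM (each count divided by the TMM-scaled library size), and a gene was called where edgeR gave an adjusted p-value below 0.05 with a change past 2-fold. Of the 9, 6 passed the filter on low counts and were tested. *Afp*, *Ttr* and *Apoa1* did not pass. TKO replicate 2 stood apart at D0 from TKO replicate 1, and results that rest on it are given with and without it. The D0 and D6 libraries came in separate tables, and a day effect and a difference between the sequencing of the tables cannot be told apart.

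*Afp*, alpha-fetoprotein, the main serum protein of the yolk sac and fetal liver, lies on chromosome 5 of mm9 (90919740 to 90937933, plus strand). At D0 it had 0 counts in 11 of the 12 libraries and 1 count in the other. At D6 it had 0 to 3 counts, with 4 libraries at 0, so that no library at either day passed 3 counts. *Apoa1*, the main protein of high-density lipoprotein (chromosome 9, 46036663 to 46038549, plus strand), had 0 to 8 counts at D0 and 0 to 5 at D6. The group mean of *Apoa1* was highest in DKO at D0, at 0.325 ± 0.0425 CPM (SD, n = 2), while the WT clones at D0 held 0.123 ± 0.1795 (n = 3). The groups overlapped, since WT clone O4.2 had 0.329 CPM and the DKO clones 0.355 and 0.295. Without the filter on low counts, edgeR called neither *Afp* nor *Apoa1* in any of 58 tests, and the smallest unadjusted p-value was 0.0561.

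*Ttr*, transthyretin, the carrier of thyroid hormone and of retinol-binding protein, lies on chromosome 18 (20823751 to 20832825, plus strand) and overlaps a transcript on the other strand. It had 0 of 311791935 counts over the 12 D0 libraries, which allows a level of up to 0.00962 CPM (3 counts; counting error only). At D6 the WT clones O4.1, O4.2 and O4.13 held 15, 4 and 9 counts, or 0.756, 0.145 and 0.286 CPM. The 9 knockout libraries held 0 to 2 counts each, and both *Tet2*-/- clones held 0. All 3 WT libraries were thus above every knockout library, the highest of which had 0.0615 CPM in TKO replicate 1. Summed over libraries, a grouping made after the values were seen, WT at D6 had 28 counts, or 0.380 CPM of the library totals (95% exact Poisson interval 0.253 to 0.550, counting error only), and the knockouts 7 counts, or 0.0268 CPM (0.0108 to 0.0552). Against the WT libraries at D0 the WT mean at D6 was at least 3.18-fold higher, and against the *Tet2*-/- libraries at D6 at least 4.15-fold higher, with 3 counts per library as the floor. Without the filter *Ttr* was called higher at D6 in WT (adjusted p = 0.000998, edgeR), where 16.3% of genes were, and lower in *Tet2*-/- than in WT at D6 (adjusted p = 0.00934), where 7.02% were. Against WT at D6 the adjusted p from the same fit was 0.317 in *Tet1*-/-, 0.207 in DKO and 0.165 in TKO. Even in WT the level stayed below 1 CPM.

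*Apob*, the protein that carries very-low-density lipoprotein out of yolk sac and liver, lies on chromosome 12 (7984454 to 8023641, plus strand) and was low but measurable, with 29 to 132 counts at D0 and 18 to 133 at D6. At D0 the WT clones had 3.03 to 3.46 CPM and the *Tet1*-/- clones 4.58 to 5.41. At D6 the *Tet1*-/- clones 2.1, 2.2 and 2.4 had 2.87, 0.643 and 2.75 CPM, all below the D0 range. *Apob* was called lower at D6 in *Tet1*-/- (log2 fold change -1.21, SE 0.443, adjusted p = 0.0234, edgeR). There 11.2% of all tested genes were lower. The call was lost with library totals (-0.999, adjusted p = 0.0547), with the genotype fitted alone (-1.17, adjusted p = 0.0534), with the clone as a block (-0.70, adjusted p = 0.109), without clone 2.3 at D0 (-1.12, adjusted p = 0.0627) and without clone 2.2 at D6 (-0.74, adjusted p = 0.118). In WT the log2 fold change was -0.82 (SE 0.456, adjusted p = 0.118), which did not pass.

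*Lrp2*, or megalin, is a giant receptor of the LDL receptor family that takes up vitamin carriers, lipoproteins and hormones at the apical surface of the visceral endoderm and kidney tubule. It lies on chromosome 2 (69262397 to 69424122, minus strand). At D0 WT had 33.4, 37.7 and 38.0 CPM of *Lrp2*, DKO 62.4 and 85.1, TKO 18.4 and 76.0, *Tet1*-/- 64.2, 84.2 and 100.2, and *Tet2*-/- 31.7 and 27.9. At D6 it had 231, 290 and 255.2 CPM in WT clones O4.1, O4.2 and O4.13, 362, 166 and 321 in *Tet1*-/- clones 2.1, 2.2 and 2.4, 478 and 412 in DKO, 345 and 281 in TKO, and 219.99 and 213 in *Tet2*-/-. Every D6 library was above every D0 library, and DKO had the highest levels at D6. The rise was 7.11-fold in WT (log2 fold change 2.83, SE 0.353, adjusted p = 1.45e-06, edgeR), 3.42-fold in *Tet1*-/- (1.77, SE 0.338, adjusted p = 0.000172), 7.29-fold in *Tet2*-/- (2.87, SE 0.434), 6.04-fold in DKO (2.59, SE 0.426) and 6.63-fold in TKO (2.73, SE 0.430). The size in TKO is uncertain, with the TKO clones at 18.4 and 76.0 CPM at D0. Over the other settings the log2 fold change in TKO ran from 2.05 to 4.08. The difference between the changes in *Tet1*-/- and WT did not pass (-1.06, SE 0.468, adjusted p = 0.610).

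*Dab2*, the cytoplasmic adaptor that binds the tails of megalin and other LDL family receptors and links them to clathrin, lies on chromosome 15 (6249788 to 6390712, plus strand) and overlaps a transcript on the other strand. At D0 it had 2.42, 2.18 and 1.30 CPM in WT, 1.19, 1.27 and 2.25 in *Tet1*-/-, 1.91 and 2.36 in DKO, 1.67 and 8.57 in TKO replicates 1 and 2, and 1.54 and 1.72 in *Tet2*-/-. At D6 it had 27.3, 20.5 and 25.4 CPM in WT clones O4.1, O4.2 and O4.13, 21.3, 19.1 and 13.8 in *Tet1*-/- clones 2.1, 2.2 and 2.4, 26.1 and 28.6 in DKO, 15.3 and 33.4 in TKO replicates 1 and 2, and 14.0 and 11.2 in *Tet2*-/- replicates 1 and 2. The days did not overlap, and *Tet2*-/- had the lowest mean at D6. *Dab2* rose 12.3-fold in WT (log2 fold change 3.63, SE 0.434, adjusted p = 8.78e-07, edgeR), 11.5-fold in *Tet1*-/- (3.53, SE 0.440), 7.68-fold in *Tet2*-/- (2.94, SE 0.525, adjusted p = 0.000242), 12.8-fold in DKO (3.68, SE 0.533) and 4.73-fold in TKO (2.24, SE 0.488, adjusted p = 0.000935). In TKO the size turned on replicate 2 at D0: without that library the log2 fold change was 3.85, and with it as the only TKO clone at D0 it was 1.5001, both still called. None of the 4 knockouts differed from WT in the change of *Dab2* by the test of the difference, with adjusted p from 0.189 to 0.999.

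In each genotype 2 of the 6 tested genes were thus called higher. Of all tested genes, WT had 20.7% called higher and 13.3% lower, DKO 18.6% and 10.6%, TKO 16.8% and 8.63%, *Tet1*-/- 19.9% and 11.2%, and *Tet2*-/- 12.7% and 6.44%, and of the 6 the lower calls were *Apob* in *Tet1*-/- and *Sparc* in *Tet2*-/-. The same 2 genes rose under each of the other settings tried, except that *Dab2* in TKO had an adjusted p of 0.0782 when that genotype was fitted alone.

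**Figure D1:**
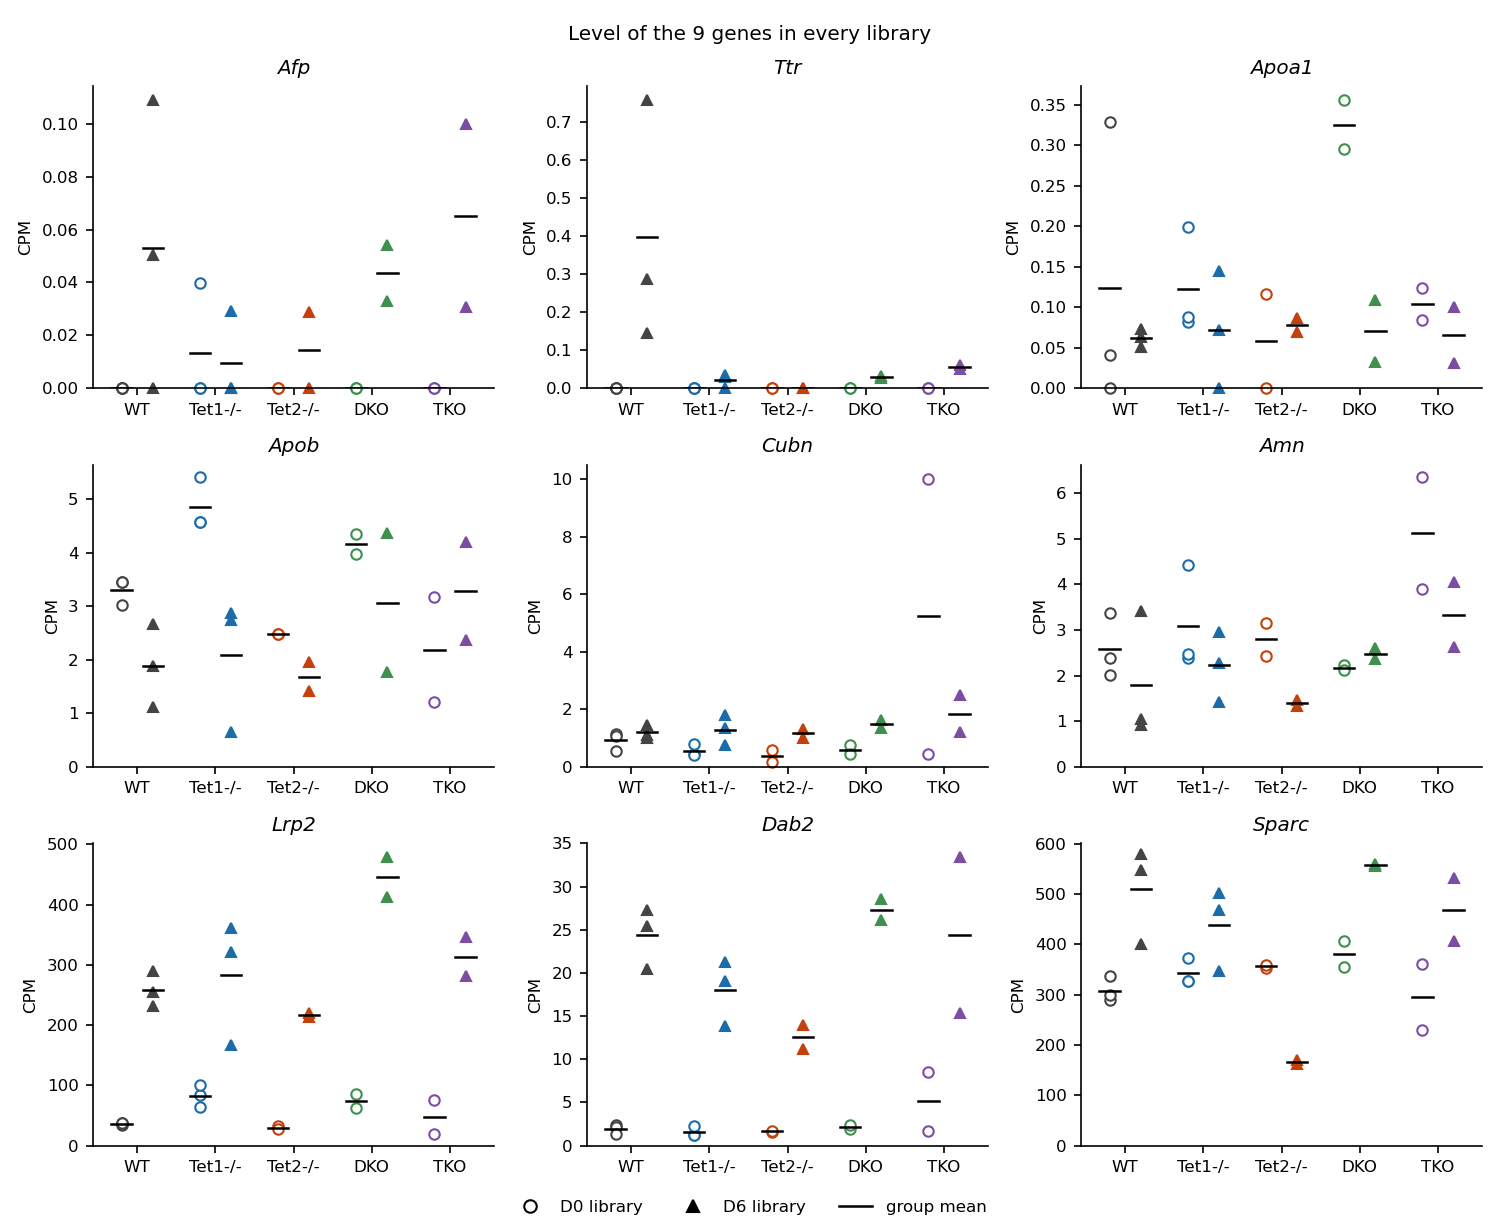
Level of each of the 9 genes in every library, in CPM after TMM scaling on a linear axis from 0 that differs between panels; circles are D0 libraries, triangles D6 libraries and lines group means, for WT and *Tet1*-/- (n = 3 a day) and *Tet2*-/-, DKO and TKO (n = 2 a day). *Lrp2* and *Dab2* lie higher at D6 in every genotype, *Sparc* is lowest in the 2 *Tet2*-/- libraries at D6, *Ttr* is above 0.1 CPM only in WT at D6, and 1 TKO library stands at 10.01 CPM for *Cubn* at D0.

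The 250 bases before the RefSeq start sites of *Lrp2* and *Dab2*, the genes that rose, and of *Afp* and *Apoa1*, which stayed at 3 counts or fewer and at 8 counts or fewer, are shown for comparison (RefSeq, GRCm38.p6, 5′ to 3′ on the strand of the gene). The capitals mark CpG dinucleotides, the substrate of DNA methylation and of the Tet enzymes. These windows cover chr2:69586030-69586279 for *Lrp2*, chr15:6299539-6299788 and chr15:6386498-6386747 for the 2 starts of *Dab2*, chr5:90490464-90490713 for *Afp* and chr9:46228380-46228629 for *Apoa1*, in a build other than that of the gene positions given here from mm9.
Lrp2: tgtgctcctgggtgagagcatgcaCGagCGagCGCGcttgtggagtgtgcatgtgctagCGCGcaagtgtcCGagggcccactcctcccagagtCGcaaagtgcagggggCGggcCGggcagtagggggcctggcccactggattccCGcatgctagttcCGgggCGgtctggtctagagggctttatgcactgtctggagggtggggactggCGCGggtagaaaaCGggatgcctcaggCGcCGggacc
Dab2, upstream start: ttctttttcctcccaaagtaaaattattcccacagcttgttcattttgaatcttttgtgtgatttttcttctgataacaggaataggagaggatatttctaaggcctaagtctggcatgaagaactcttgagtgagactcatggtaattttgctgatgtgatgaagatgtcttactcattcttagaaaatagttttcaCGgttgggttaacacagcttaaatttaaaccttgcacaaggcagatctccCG
Dab2, downstream start: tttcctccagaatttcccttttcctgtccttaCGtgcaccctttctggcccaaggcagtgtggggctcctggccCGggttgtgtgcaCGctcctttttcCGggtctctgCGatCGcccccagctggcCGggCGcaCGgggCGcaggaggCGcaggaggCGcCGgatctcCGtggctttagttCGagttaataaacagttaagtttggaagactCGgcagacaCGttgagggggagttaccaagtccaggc
Afp: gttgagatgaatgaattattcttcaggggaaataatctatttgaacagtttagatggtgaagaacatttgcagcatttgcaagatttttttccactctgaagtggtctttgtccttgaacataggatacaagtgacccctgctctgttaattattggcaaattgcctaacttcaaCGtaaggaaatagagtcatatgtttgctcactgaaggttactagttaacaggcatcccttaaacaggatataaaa
Apoa1: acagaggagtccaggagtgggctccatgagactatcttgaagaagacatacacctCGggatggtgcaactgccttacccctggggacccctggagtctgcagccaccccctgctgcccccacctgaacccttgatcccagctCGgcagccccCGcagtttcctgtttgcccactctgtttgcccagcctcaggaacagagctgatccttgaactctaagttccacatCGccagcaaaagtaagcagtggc

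*Lrp2* held 18 CpGs in this window and the downstream start of *Dab2* 17, against 2 at the upstream start of *Dab2*, 1 in *Afp* and 4 in *Apoa1*; over 32851 RefSeq starts the median was 6 and the quartiles 2 and 16. Of the other genes *Cubn* had 2, *Sparc* 4, *Apob* 7 and *Amn* 11. Short motifs were searched on both strands in the same windows. A TATA box, TATAAA, was found in *Afp* and *Apob* and in 12.4% of all starts. The letters GTTAAT, a part of the palindrome that HNF1 factors bind, were found in *Afp*, *Sparc* and the downstream start of *Dab2* and in 6.43% of all starts. AGATAA, the core read by GATA factors, TGTTTAC, read by FOXA factors, and AGGTCA, a nuclear receptor site, were in none of these windows and in 9.99%, 3.17% and 14.0% of all starts. DNA methylation at these windows was not analysed here.

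*Cubn*, cubilin, is the receptor that works with megalin and takes up vitamin B12 bound to intrinsic factor and apolipoprotein A-I, and *Amn*, amnionless, is the membrane protein that anchors cubilin. *Cubn* (chromosome 2, 13197965 to 13413551, minus strand; it overlaps a transcript on the other strand) was low, with 6 to 28 counts in 11 of the 12 D0 libraries and 243 in the other, TKO replicate 2. At D0 WT had 0.565 to 1.15 CPM, DKO 0.443 and 0.755, TKO 0.459 and 10.01, *Tet1*-/- 0.397 to 0.779, and *Tet2*-/- 0.175 and 0.597. At D6 the 12 libraries lay between 0.750 and 2.496 CPM, and the highest was again TKO replicate 2. No change over the 6 days was called, with log2 fold changes of 0.35 in WT (SE 0.695), 1.26 in *Tet1*-/- (SE 0.723), 1.66 in *Tet2*-/- (SE 0.925), 1.31 in DKO (SE 0.878) and -1.53 in TKO (SE 0.773). Without TKO replicate 2 at D0 *Cubn* was called higher in *Tet1*-/- (1.26, adjusted p = 0.0182, edgeR), *Tet2*-/- (1.66, adjusted p = 0.0244) and DKO (1.31, adjusted p = 0.0451). With each genotype fitted alone *Cubn* was called higher at D6 in *Tet1*-/- (1.30, adjusted p = 0.0267, edgeR), *Tet2*-/- (1.73, adjusted p = 0.00299) and DKO (1.34, adjusted p = 0.0102).

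*Amn* (chromosome 12, 112509322 to 112514637, plus strand) had 2.02 to 6.35 CPM at D0 and 0.908 to 4.04 at D6. In WT it had 0.908, 3.41 and 1.05 CPM at D6 in clones O4.1, O4.2 and O4.13, and clone O4.2 stood above the other two. The change over the 6 days did not pass in any genotype, with log2 fold changes from -0.99 in *Tet2*-/- (SE 0.508, adjusted p = 0.128, edgeR) to 0.19 in DKO (SE 0.503, adjusted p = 0.764). Without clone O4.2 at D6 the change in WT was called lower (-1.39, adjusted p = 0.00369) and *Amn* was called higher in TKO than in WT at D6 (1.76, adjusted p = 0.0244). In the fit of all libraries *Amn* and *Cubn* were not called higher in any genotype, a result that for *Cubn* rests on having both TKO clones at D0.

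*Sparc*, osteonectin, is a secreted protein that binds collagen and calcium. It is made in large amounts by the parietal endoderm and by mesenchyme as well as by visceral endoderm, and had the highest mean CPM of the 9 in every group except *Tet2*-/- at D6, where *Lrp2* was above it. It lies on chromosome 11 (55208002 to 55233582, minus strand). At D0 WT had 289, 337 and 299 CPM of *Sparc*, DKO 355 and 407, TKO 230.4 and 361, *Tet1*-/- 328, 327 and 372, and *Tet2*-/- 354 and 360. At D6 it had 580, 401 and 549 CPM in WT clones O4.1, O4.2 and O4.13, 503, 468 and 348 in *Tet1*-/- clones 2.1, 2.2 and 2.4, 171 and 162 in *Tet2*-/- replicates 1 and 2, 557 and 559 in DKO, and 407 and 532 in TKO replicates 1 and 2. Both *Tet2*-/- libraries at D6 were below the other 22 libraries, while in WT all D6 libraries were above all D0 libraries.

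*Sparc* fell 2.14-fold over the 6 days in *Tet2*-/- (log2 fold change -1.10, SE 0.202, adjusted p = 0.000326, edgeR). In the other genotypes it moved up by less than 2-fold, by 0.73 in WT (SE 0.164, adjusted p = 0.000733), 0.36 in *Tet1*-/- (SE 0.163, adjusted p = 0.0604), 0.55 in DKO (SE 0.1999, adjusted p = 0.0258) and 0.67 in TKO (SE 0.2004, adjusted p = 0.00984). Scaling by library totals in place of TMM, which added 0.14 (*Tet2*-/-) to 0.21 (DKO) to each log2 change between the days, left the fall in *Tet2*-/- at -0.96, under 2-fold, with an adjusted p of 0.000930. The change in *Tet2*-/- differed from the change in WT by -1.82 (SE 0.260, adjusted p = 0.00122, edgeR), where 5.13% of tested genes had a called lower difference, and it was called in all 30 other settings. No member had a called difference of change in *Tet1*-/-, DKO or TKO, where 0%, 0% and 3.58% of genes did. With replicate 2 as the only TKO clone at D0, *Cubn* and *Dab2* had called lower differences in TKO (-2.82 and -2.13, adjusted p = 0.0228 and 0.0168).

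**Figure D2:**
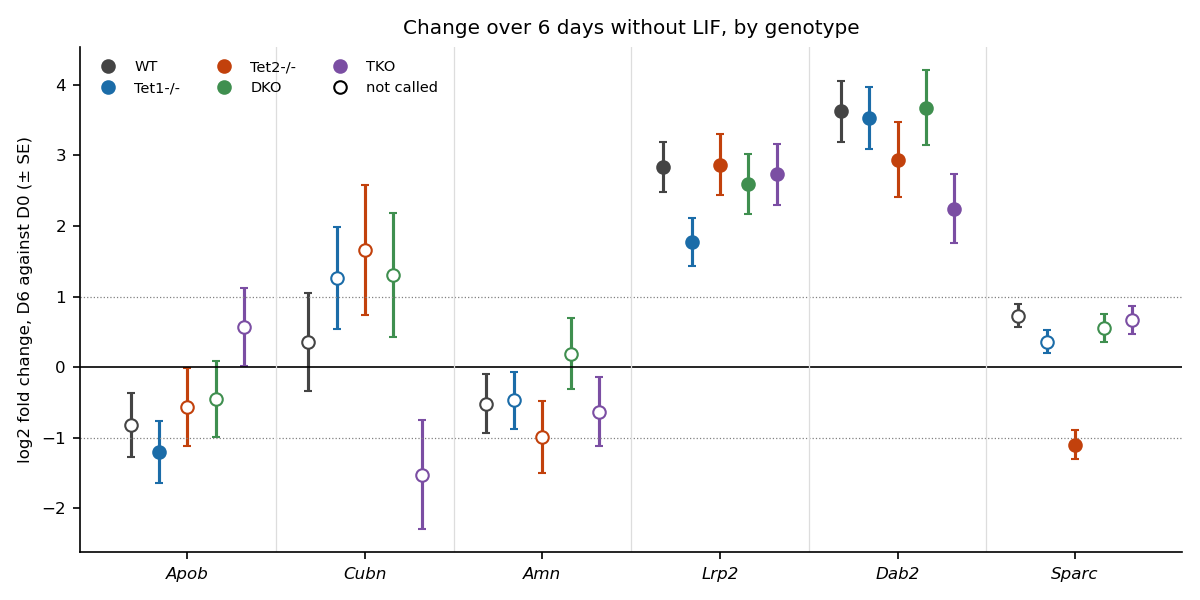
Log2 fold change from D0 to D6 (vertical axis, ± SE from edgeR) of the 6 genes that passed the filter, by genotype; filled points were called (adjusted p-value under 0.05 and past 2-fold, the dotted lines) and open points were not. *Lrp2* and *Dab2* are filled in all 5 genotypes, *Sparc* is below 0 in *Tet2*-/- alone, at -1.10, and *Apob* is filled in *Tet1*-/-.

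Knockouts were then set against WT at D6. *Sparc* was 3.097-fold lower in *Tet2*-/- (log2 fold change -1.63, SE 0.197, adjusted p = 0.00410, edgeR), with 9.45% of all tested genes called lower in that comparison. The call was lost without replicate 2 of *Tet2*-/- (-1.59, adjusted p = 0.0663) and kept without replicate 1 (-1.67, adjusted p = 0.0458). *Dab2* was lower in *Tet2*-/- by just under 2-fold (-0.97, SE 0.301, adjusted p = 0.0352) and was called with library totals (-1.02), with the replicate number as a block (-1.04, adjusted p = 0.0468) and without WT clone O4.2 (-1.08, adjusted p = 0.0303). *Lrp2* at -0.27 (SE 0.261, adjusted p = 0.444), *Cubn* at -0.05 (SE 0.423), *Amn* at -0.39 (SE 0.540) and *Apob* at -0.18 (SE 0.620) did not pass. In *Tet1*-/-, DKO and TKO 0%, 0% and 0% of all genes were called at D6, and so none of the 6. These counts over all genes moved with the method: by DESeq2 TKO had 176 genes higher and 294 lower, DKO 99 higher and 86 lower, and *Tet1*-/- 28 higher with 16 lower. One edgeR fit over the libraries of both days called 244 higher and 271 lower in TKO, 65 higher and 33 lower in DKO, and 0 in *Tet1*-/-, and without WT clone O4.2 edgeR called 377 higher and 345 lower in TKO. Of the 18 tests of the 6 genes in these 3 knockouts 1 had an unadjusted p-value under 0.05 in edgeR, *Lrp2* in DKO at 0.78 (SE 0.256, adjusted p = 0.239), and DESeq2 called 0 of the 18. *Amn* in TKO at 0.88 (SE 0.517) and *Apob* in TKO at 0.81 (SE 0.602) had larger shifts and wider errors.

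**Figure D3:**
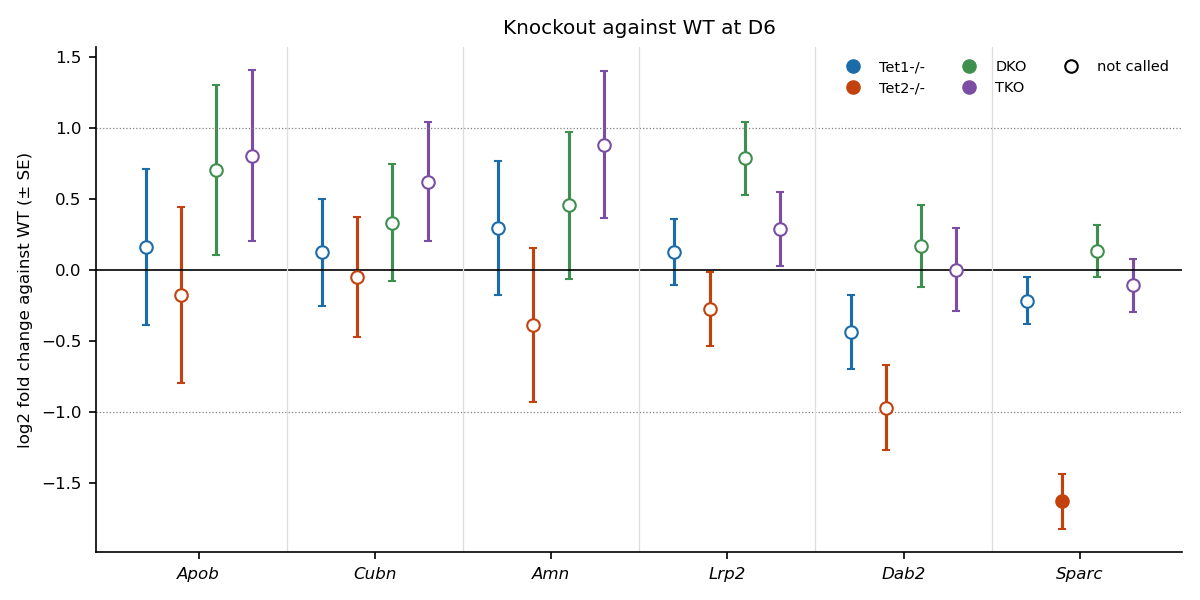
Log2 fold change against WT at D6 (vertical axis, ± SE from edgeR) of the 6 tested genes in the 4 knockouts; the dotted lines mark 2-fold, and filled points were called. *Sparc* in *Tet2*-/-, at -1.63, is the only filled point, and *Dab2* in *Tet2*-/- lies at -0.97.

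Between knockouts at D6, *Sparc* was called lower in *Tet2*-/- than in *Tet1*-/- (log2 fold change -1.41, SE 0.195, adjusted p = 0.00710, edgeR; 4.48% of genes were lower). DKO had more *Sparc* (1.76, adjusted p = 0.00239), *Dab2* (1.14, adjusted p = 0.0385) and *Lrp2* (1.06, adjusted p = 0.0325) than *Tet2*-/-, with 6.37% of genes called higher, and TKO had more *Sparc* (1.52, adjusted p = 0.00662), with 6.01% called higher. Without *Tet2*-/- replicate 2 none of these 5 calls was made, and without replicate 1 1 call was, that of *Sparc* in DKO. The *Dab2* and *Lrp2* calls were also lost without either DKO clone or without WT clone O4.13, and that of *Dab2* with the replicate number as a block (adjusted p = 0.0580). In the order of *Sparc* levels at D6, DKO, WT, TKO and *Tet1*-/- did not differ from each other by the test, and *Tet2*-/- was called lower than each of them. For *Lrp2* the order was DKO, TKO, *Tet1*-/-, WT and *Tet2*-/-, with 1 called pair, DKO and *Tet2*-/-.

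At D0 edgeR called none of the 6 genes in any knockout against WT, with 0.0346% of all genes called in DKO, 3.15% in TKO, 0.00692% in *Tet1*-/- and 3.19% in *Tet2*-/-. Of the 24 tests 5 had an unadjusted p-value under 0.05, and DESeq2 called 1, *Cubn* in TKO (adjusted p = 0.0262). *Lrp2* was nearest in 2 of the genotypes, at 1.17 in *Tet1*-/- (SE 0.360, adjusted p = 0.216, edgeR) and 1.01 in DKO (SE 0.393, adjusted p = 0.273), and all *Tet1*-/- and DKO libraries lay above all WT libraries. Both became calls without TKO replicate 2, at 1.17 (adjusted p = 0.00170) where 0.387% of genes were called higher and at 1.01 (adjusted p = 0.00470) where 0.577% were, and likewise without TKO replicate 1 (adjusted p = 0.00156 and 0.00439).

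TKO replicate 2 at D0 had 10.01 CPM of *Cubn*, 8.57 of *Dab2*, 6.35 of *Amn* and 76.0 of *Lrp2*, and replicate 1 had 0.459, 1.67, 3.88 and 18.4. For *Cubn*, *Dab2* and *Amn* TKO replicate 2 was the highest of the 12 D0 libraries. *Gata6*, a transcription factor that starts the primitive endoderm program, was at 4.29 CPM in replicate 2 and 0.251 in replicate 1, and *Gata4*, its partner, at 4.99 and 2.51; both genes were picked here after their values were seen. Other factors of the visceral endoderm did not all lie that way: in replicates 2 and 1 *Eomes* was at 8.36 and 21.3 CPM and *Hnf4a* at 0.330 and 0.919. *Foxa1* was about level, at 0.330 and 0.292 CPM (8 and 7 counts). *Hnf4a* and *Foxa1* were also picked after their values were seen. *Sparc* at 361 CPM and *Apob* at 3.17 CPM in replicate 2 were within the range of the other libraries. Over both clones the log2 fold changes against WT were 2.48 for *Cubn* (SE 0.810, adjusted p = 0.0759, edgeR), 1.37 for *Dab2* (SE 0.511, adjusted p = 0.111) and 0.98 for *Amn* (SE 0.321, adjusted p = 0.0782). With replicate 2 alone for TKO, *Cubn* (3.42), *Dab2* (2.11), *Amn* (1.29) and *Lrp2* (1.06) were called higher than in WT, where 3.1% of genes were, and with replicate 1 alone *Apob* (-1.45) was called lower, where 3.43% were; a single clone is assumed there to vary like the other groups.

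**Figure D4:**
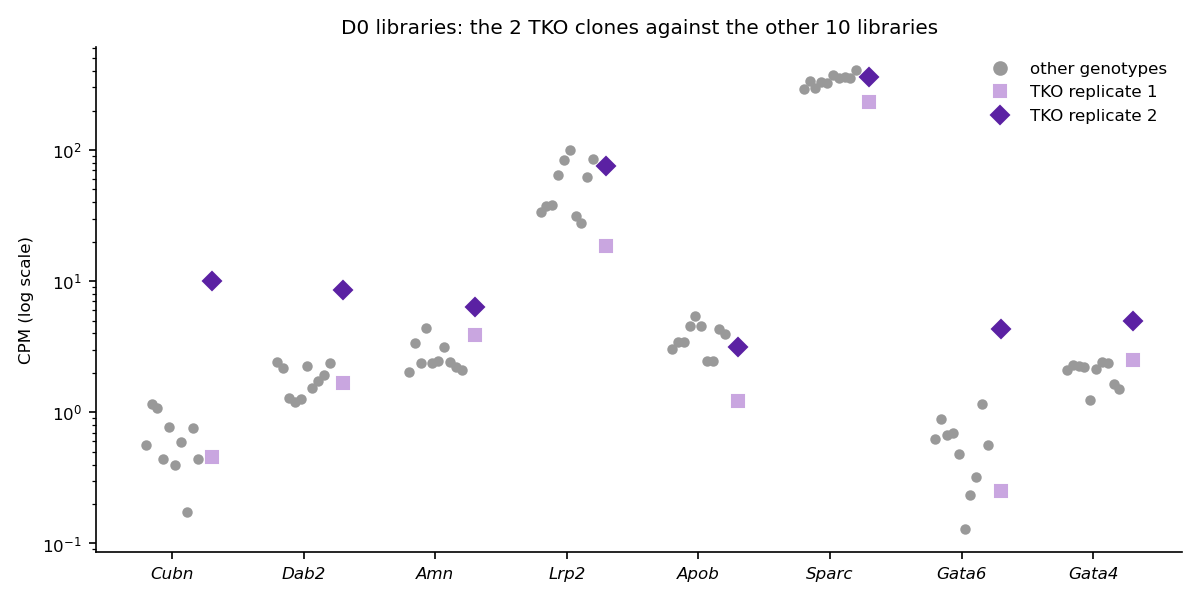
CPM (log axis) of 6 of the genes and of *Gata6* and *Gata4* in the 12 D0 libraries; grey points are the 10 libraries of WT, *Tet1*-/-, *Tet2*-/- and DKO, spread sideways for view only, and the square and the diamond are TKO replicates 1 and 2. TKO replicate 2 lies above every other library for *Cubn*, *Dab2*, *Amn*, *Gata6* and *Gata4*, and not for *Lrp2*, *Apob* or *Sparc*.

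The same clone set the direction over time. In TKO *Cubn* was called higher at D6 without replicate 2 at D0 (1.97, adjusted p = 0.0338, edgeR), together with *Lrp2*, *Dab2* and *Sparc* (1.02), where 15% of genes were higher. With replicate 2 as the only TKO library at D0 it was called lower (-2.46, adjusted p = 0.00104), where 9.27% were lower. Between knockouts at D0, TKO was called higher than *Tet1*-/- in *Cubn* (3.29) and *Dab2* (1.73), with 1.43% of genes higher, and lower in *Apob* (-1.12, adjusted p = 0.0330, edgeR), with 2.57% lower, and higher than *Tet2*-/- in *Cubn* (3.86), with 2.08% higher. The *Apob* call was lost when any of 9 of the 12 D0 libraries was left out, and the log2 fold change was -0.60 (adjusted p = 0.0620, edgeR) without TKO replicate 1. The call was kept at -1.98 without replicate 2. Over the 18 other settings the *Cubn* call was lost in 4 against *Tet1*-/-, with its direction turned in 1 more, and in 10 against *Tet2*-/-, and the *Dab2* call in 13. Without TKO replicate 2 the *Cubn* differences were -0.21 and 0.38 and that of *Dab2* 0.12. *Lrp2* was called lower in *Tet2*-/- than in *Tet1*-/- at D0 (-1.48, SE 0.418, adjusted p = 0.0288), with 3.55% of genes lower, and lost the call without either *Tet2*-/- clone or without *Tet1*-/- clone 2.3 or 2.4.

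Per kilobase of annotated exon, a rough scale for levels of different genes, WT at D6 had 151 CPM of *Sparc*, 15.5 of *Lrp2*, 3.32 of *Dab2*, 1.06 of *Amn*, 0.325 of *Ttr*, 0.136 of *Apob*, 0.101 of *Cubn*, 0.0503 of *Apoa1* and 0.0255 of *Afp*. At D0 the order was *Sparc* (91.6 CPM per kilobase), *Lrp2* (2.18), *Amn* (1.54), *Dab2* (0.268), *Apob* (0.238), *Apoa1* (0.0997) and *Cubn* (0.0789), with *Afp* and *Ttr* at 0. The level of *Lrp2* was thus far above that of its partner *Cubn* on this scale. The length counts the exons of all isoforms once, while the counts are of the first line of each symbol. Length and counts therefore need not cover the same exons in a gene with several lines, such as *Dab2*.

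Correlations between the 6 tested genes were computed over the 12 libraries of each day, on log2(CPM + 1), for 15 pairs a day. At D6 1 of the pairs without *Sparc* passed adjustment over the 15 pairs. *Cubn* and *Apob* had Pearson's r of 0.874 (permutation test, two-sided, p = 0.000200, adjusted p = 0.00150) and Spearman's rho of 0.853 (p = 0.000700, adjusted p = 0.00525), and r was 0.798 without the 2 libraries farthest from the median of *Cubn* and 0.837 within genotypes. The *Tet2*-/- libraries formed a cluster of their own in *Sparc*, so no pooled value is given for its pairs with the other tested genes. Over the 10 libraries of the other genotypes r was 0.884 for *Dab2* and *Sparc*, and the other 4 genes had r from -0.305 (*Amn*) to 0.269 (*Apob*) with *Sparc*, given as a description. At D0 1 pair passed, *Apob* and *Lrp2*, with r = 0.864 (permutation test, p = 0.000190, adjusted p = 0.00285) and rho = 0.846 (p = 0.00106, adjusted p = 0.0159), r = 0.790 without the 2 farthest libraries and 0.881 within genotypes. Within genotypes r at D0 ran from 0.338 (*Amn* and *Lrp2*) to 0.982 (*Cubn* and *Apob*, with r = 0.025 over the 12 libraries). The value within genotypes thus does not set *Apob* and *Lrp2* apart from pairs that did not pass. No r without the TKO libraries was computed. The libraries of a genotype share their edit and their parent clone.

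**Figure D5:**
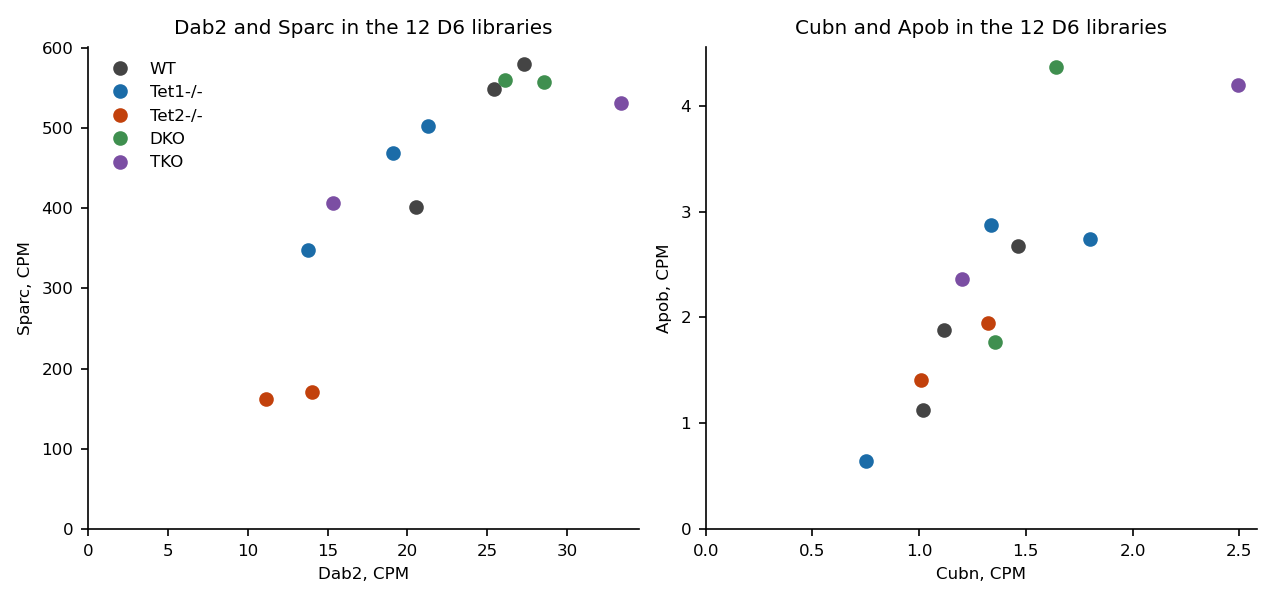
CPM of *Dab2* against *Sparc* (left) and of *Cubn* against *Apob* (right) in the 12 D6 libraries, coloured by genotype, on linear axes from 0. The 2 *Tet2*-/- libraries lie apart from the other 10 in *Sparc*, at 162 and 171 CPM, and the other libraries rise together in both panels.

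The genes most like each of the 6 over the 12 D6 libraries, among 13113 other genes with at least 1 CPM, were *Pdzd2* and *Nlrp9b* for *Lrp2* (Pearson's r = 0.924 for both), *Yipf4* for *Dab2* (0.97501), *Kirrel* for *Sparc* (0.988), *Zfp800* for *Cubn* (0.946), *4933402E13Rik* for *Amn* (0.942) and *Myof* for *Apob* (0.937). These are the highest of many values and are given as a description. The value for *Sparc* pools all 12 libraries, with the *Tet2*-/- cluster among them, and no value without that cluster was computed.

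Other genes of the same pathway were taken from lists. Of 11 partners in endocytosis, 2 were called higher over the 6 days and 1 lower in WT (median log2 fold change 0.48, against 0.01 over all genes). These are shares like those of all genes, 20.7% higher and 13.3% lower. The 3 were *Clcn5*, an endosomal chloride exchanger (2.19), *Myo6*, a motor of endocytic vesicles (2.13), and *Fcgrt*, the neonatal Fc receptor (-3.09), named after their values were seen. *Clcn5* was lower in *Tet2*-/- than in WT at D6 (-1.59, adjusted p = 0.00414, edgeR). This was the 1 call of the 11, a share like the 9.45% of all genes called lower there, and it was not made without *Tet2*-/- replicate 2. The most abundant partner, *Cltc*, the clathrin heavy chain, had 0.48 in WT (adjusted p = 0.00632), under 2-fold.

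Of 20 further plasma proteins and lipoprotein assembly genes, 8 passed the filter, and in WT 0 were called higher and 5 lower (median -1.22), against 20.7% and 13.3% of all tested genes. *Apoe*, the most abundant, had 229 ± 44.1 CPM (SD, n = 3) at D0 and 300.2 ± 12.7 at D6 in WT (log2 fold change 0.39, adjusted p = 0.0814, edgeR). *Trf*, transferrin, fell from 24.8 ± 2.67 to 1.47 ± 1.40 CPM (-4.04), and *Mttp*, which loads lipid onto *Apob*, had 8.64 ± 1.43 and 10.5 ± 1.11 CPM (0.28, adjusted p = 0.236). *Rbp4*, the retinol carrier that binds transthyretin, had 3.13 ± 0.220 and 3.63 ± 0.530 CPM. *Rbp4* was lower in *Tet2*-/- than in WT at D6 (-1.48, adjusted p = 0.00538), and *Trf* was higher (2.01, adjusted p = 0.0422); neither call was made without either *Tet2*-/- clone at D6. *Alb* had 0 counts in all 3 WT libraries at D0 and a mean of 0.0106 CPM at D6, and of 8 hepatocyte markers 2 passed the filter, with a summed level of 1.04 to 4.84 CPM over the D6 libraries.

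Of 13 transcription factors of the visceral endoderm, 10 were called higher at D6 and 1 lower in WT (median log2 fold change 4.31), against 20.7% and 13.3% of all genes. DKO had 9 higher and 1 lower (2.68; all genes 18.6% and 10.6%), TKO 4 and 1 (0.95; 16.8% and 8.63%), *Tet1*-/- 10 and 2 (2.18; 19.9% and 11.2%), and *Tet2*-/- 5 and 1 (1.66; 12.7% and 6.44%). *Gata4* rose from 1.85 ± 0.469 to 65.4 ± 39.2 CPM (SD, n = 3) in WT (log2 fold change 5.14, adjusted p = 6.73e-07, edgeR). *Eomes* (4.82) and *Otx2* (2.04) also rose there, and *Lhx1*, at 0 to 1 counts in the WT libraries at D0, reached 119.6 ± 63.04 CPM. In *Tet2*-/- 11 of the 13 were lower than in WT at D6 (median -3.57, against -0.03 over all genes, of which 9.45% were lower), *Gata4* at 5.57 ± 0.551 CPM (-3.57, adjusted p = 0.0105) and *Lhx1* at 1.18 ± 0.933 (-6.63, adjusted p = 0.00426). Most of these factors are also used outside the visceral endoderm. WT clone O4.2, which had the lowest *Ttr* of the 3 WT clones, also had less *Gata4* at D6 (20.4 CPM) than O4.1 (91.9) and O4.13 (84.0). It had less *Eomes* (96.7 against 261 and 232) and *Lhx1* (54.2 against 180 and 124) as well. Outside this list it had less *Col1a1*, a mesenchyme gene picked after its values were seen (53.3 against 118 and 260). *Pou5f1* lay the other way, at 268 against 207 and 219. Without *Tet2*-/- replicate 2 at D6 0 of these 11 calls were made (median -3.67), and without replicate 1, 2 were (median -3.32). In TKO 0 of the 13 were called against WT at D6 (median -2.47). The list's summed level at D6 was 619 to 925 CPM in WT, 230.5 to 287 in *Tet2*-/- and 174 to 262 in TKO, and *Dab2* and *Lrp2* rose in all 3.

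Of 21 other visceral endoderm genes 18 passed, with 12 higher and 1 lower in WT (median 4.07). DKO had 14 and 1, TKO 12 and 0, *Tet1*-/- 12 and 1, and *Tet2*-/- 9 and 2. The shares of all genes were 20.7% higher and 13.3% lower in WT, 18.6% and 10.6% in DKO, 16.8% and 8.63% in TKO, 19.9% and 11.2% in *Tet1*-/-, and 12.7% and 6.44% in *Tet2*-/-. *Krt8* and *Krt18*, keratins of simple epithelia, went from 13.2 ± 0.921 and 10.5 ± 0.990 CPM (SD, n = 3) to 484 ± 217 and 488 ± 173 in WT. *Podxl*, an apical sialomucin, went from 33.3 ± 6.42 to 739 ± 200. In *Tet2*-/- 11 were lower than in WT at D6 and 1 higher (median -1.75), where 9.45% of all genes were lower and 4.81% higher. Without *Tet2*-/- replicate 2 there were 0 calls (median -1.56), and without replicate 1 there were 5, all lower (median -2.14). *Cdh1*, the epithelial cadherin, had a log2 fold change of 0.06 there (adjusted p = 0.847).

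Markers of other cell types moved between the same groups, and their part in the results above was not tested. Counts between *Tet2*-/- and WT at D6 stand against 9.45% of all genes lower and 4.81% higher. They need both *Tet2*-/- clones, and with 1 clone left in that arm most or all of the calls were lost. The log2 fold change of *Sparc* in that comparison stayed between -1.77 and -1.50 over the other settings. Without replicate 2 none of the marker calls was made. Without replicate 1, 3 of 16 mesoderm, 2 of 6 definitive endoderm, 1 of 7 trophoblast and 1 of 13 parietal markers were lower and 0 of 6 neuroectoderm markers higher. Over the 6 days in WT, where 20.7% of all genes were higher and 13.3% lower, 15 of 16 mesoderm and mesenchyme markers were called higher and 0 lower, 6 of 6 definitive endoderm markers higher, 5 of the 7 tested trophoblast markers higher, and 6 of 13 parietal endoderm and basement membrane markers higher and 2 lower, *Lama1*, named after its values were seen, being 1 of the 2. The mesoderm sum at D6 was 2193 to 5572 CPM in WT and 1327 to 1329 in *Tet2*-/-, where 12 of the 16 were lower than in WT, as was *Sparc*. The same sum at D0 was 1453 to 1698 CPM in WT and 2449 to 2843 in *Tet2*-/-. Most abundant in that list was *Fn1* (mean of 1476 CPM over the 24 libraries), which was not among the 12. All 6 definitive endoderm markers (median -5.08) and 5 of the 7 tested trophoblast markers (median -2.43) were also lower in *Tet2*-/- than in WT at D6. The parietal list had 4 of 13 lower in that comparison, with a sum of 2058 to 2230 CPM in WT and 1699 to 1836 in *Tet2*-/-. *Lama1*, the laminin chain of parietal endoderm, had 18.7 to 22.4 CPM in WT and 17.4 and 18.5 in *Tet2*-/- at D6. ESC markers, of which 9 of 10 were called lower over the 6 days in WT and 4 of 10 in *Tet2*-/-, summed at D6 to 1125 to 2062 CPM in WT and 2672 to 2863 in *Tet2*-/-. Of 6 neuroectoderm markers, 2 were called higher and 2 lower over the 6 days in WT, and 3 were higher in *Tet2*-/- than in WT at D6. Of the 3 *Tet* genes, 1 was higher and 2 were lower in WT over the 6 days, and 0 differed between *Tet2*-/- and WT at D6. At D0 *Tet2* was called lower than in WT in *Tet2*-/- and in TKO, with 91.8 ± 3.40 CPM in WT (SD, n = 3), 22.0 ± 1.62 in *Tet2*-/- and 25.3 ± 24.3 in TKO (n = 2). It was not called in DKO, at 39.0 ± 23.6 CPM, nor was *Tet1* in *Tet1*-/-, DKO or TKO. The change of *Tet2* over the 6 days was called higher in *Tet2*-/- than in WT. The summed *Tet* level at D0 was 52.7 CPM in one TKO clone and 614 in the other.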

How the data were processed

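RNA of 24 libraries (12 at D0 and 12 at D6) was selected for poly(A) and made into libraries with a NEBNext Ultra kit by the authors, who mapped the reads to mm9 with STAR 2.5.1. The deposited values are counts per RefSeq transcript line, named by gene symbol, not normalized; the counting program is given differently in the sources, and whether strand was used is not stated. Of 31928 lines for 22926 symbols the first line of each symbol was kept; 4911 symbols have several (*Dab2* 4 and *Sparc* 2 among the 9 genes). Spike-in counts were not used here. CPM were computed after TMM scaling. The main test was edgeR 4.0.16 (R 4.3.3), glmQLFit and glmQLFTest, after filterByExpr with a minimum count of 10, with Benjamini-Hochberg adjustment over all genes tested: 15639 genes in 1 fit of all libraries for D6 against D0 and for differences of change, 14456 in the fit of D0 and 15435 in that of D6. Calls needed an adjusted p-value below 0.05 and a log2 fold change past 1 in size. Fits were tested on simulated data before use. DESeq2 1.42.0, other scalings, no filter, other lines, blocks, separate fits and each library left out were the alternatives.

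The members and lists were chosen with earlier results of these data known. Genes named are the 9 members, up to 4 genes of each list with the highest mean CPM over the 24 libraries, and the genes with the highest correlation to a member at D6; exceptions are marked. The clones differ between days in *Tet1*-/- by the labels (2.3 only at D0, 2.2 only at D6), and the D6 label 512 was read as DKO clone 5.12. By the labels the other 11 clones are present at both days, so the clone pairs the days; their deviations from the group means correlated over genes at 0.0892 to 0.203, above 0.1 in 7 of 8 distinct values (in a group of 2 the clones mirror each other). No 2 libraries of a group agreed within sampling noise. RNA with a small indel can still be counted, so levels of the *Tet* genes are a weak check of the labels. Gene positions and exon lengths are from GENCODE vM1 (NCBIM37, mm9). Start-site windows are from RefSeq (GRCm38.p6), found for 8 of the 9 genes with 9 starts.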

Additional observations from a re-analysis of the deposited data

Results flagged for a closer look

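One result differed between genotypes by a test of the difference itself. The change of *Sparc* from D0 to D6 differed by -1.82 on the log2 scale between *Tet2*-/- and WT (*Tet2*-/- minus WT, SE 0.260, adjusted p = 0.00122, edgeR). *Sparc* moved from 357 ± 4.44 to 167 ± 6.04 CPM (SD, n = 2) in *Tet2*-/- and from 308 ± 25.1 to 510.1 ± 95.4 CPM (n = 3) in WT, lower in both *Tet2*-/- clones and higher in all 3 WT clones. Over the other settings the difference ranged from -1.97 to -1.72. Markers of other cell types moved with it, and their part was not tested: in *Tet2*-/- against WT at D6, 12 of 16 mesoderm and mesenchyme markers, 6 of 6 definitive endoderm markers and 5 of 7 tested trophoblast markers were called lower, with 9.45% of all genes lower. None of these calls was made without *Tet2*-/- replicate 2 at D6, and 3, 2 and 1 were without replicate 1.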

How the results depend on the processing

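*Lrp2* was called higher at D6 in all 5 genotypes under each of the 31 alternatives, and *Dab2* under each except in TKO with the genotype fitted alone, where 1 member was called higher. Counts of the other members called moved more, and the cause was not tested. With library totals 0 members were called lower in *Tet1*-/- and 0 in *Tet2*-/- over the 6 days and 2 in *Tet2*-/- against WT at D6; the fit of *Tet1*-/- alone gave 0 lower. Without a filter 2 were lower in *Tet2*-/- at D6 and 1 higher in TKO at D0, as with DESeq2 (1). With the clone as a replicate block 0 were lower in *Tet1*-/- over the 6 days. With the replicate number as a block in each day, 2 were lower in *Tet2*-/- at D6 and 3 calls were made over the pairs of knockouts at D0 (5 in the main fit and 8 with DESeq2). The numbers are shared across genotypes only by name: deviations of libraries with the same number correlated at -0.0825 to 0.324 at D0 and -0.393 to 0.330 at D6. Over all genes, *Tet2*-/- against WT at D6 had 1459 lower (1424 to 1603 over all settings that keep every library), *Tet1*-/- over the 6 days 1752 (1324 to 1804), and TKO against WT at D0 149 higher (117 to 169). The block changed the side of the threshold of no other count of members called.

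Leaving out 1 library gave 0 to 1 members lower over the 6 days in WT, 0 to 1 in *Tet1*-/- and 0 to 1 in TKO, and 2 to 4 higher in TKO. In DKO, *Tet1*-/- and *Tet2*-/- it gave 2 to 3 higher; the third was *Cubn*, called when either TKO library at D0 was left out. *Ttr* in WT is not counted, since it passed the filter there through the WT libraries at D6 in which it is high. Over all genes, leaving out 1 library gave 0 to 1598 lower in *Tet2*-/- against WT at D6, 58 to 459 higher in TKO against WT at D0 and 132 to 590 lower differences of change in TKO. Against WT at D0 it gave 0 to 1 higher in *Tet1*-/-, 0 to 1 in DKO and 0 to 4 in TKO, and 0 to 1 lower in *Tet2*-/- and in TKO. At D6 it gave 0 to 2 lower in *Tet2*-/- and 0 to 1 higher in TKO, and 0 to 2 lower differences of change in TKO. Over the pairs of knockouts it gave 0 to 12 calls at D0 and 0 to 6 at D6. The difference in *Cubn* between TKO and *Tet1*-/- at D0 (3.29) was -0.21 without TKO replicate 2, where its direction turned, and 4.22 without replicate 1. Where an arm is left with 1 clone, that clone is assumed to vary like the other groups. 3 of the genotypes have 2 clones, and levels near 0 rest on few counts.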

Other observations

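*Hnf4a*, the hepatic and visceral endoderm factor that drives apolipoprotein genes, was at 2.46, 5.39 and 2.81 CPM in the WT clones at D0 and at 5.19, 0.508 and 2.58 in clones O4.1, O4.2 and O4.13 at D6, and in the *Tet2*-/- clones at 0.256 and 0.146 at D0 and at 0.0288 and 0.0349 CPM, 1 count each, at D6. It was low in other knockouts too, at 0.148 to 0.533 CPM in DKO and 0.330 to 0.919 in TKO over both days, and was called lower than in WT at D0 in *Tet2*-/- and TKO. *Hnf4a* was picked after its values were seen.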
